A study of Homo sapiens with 6 samples.

Results

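The genes of antigen presentation by the major histocompatibility complex (MHC) were followed in PC-3 cells depleted of CdGAP. The list held 33 genes of the 64253 in each count table. Its members were taken by symbol, at their place on chromosome 6 or at their main locus elsewhere, with copies on alternate haplotype contigs left out. PC-3 cells are an established human line, grown from a bone metastasis of a prostate cancer. RNA was sequenced from 3 shCdGAP samples, which carried an shRNA against CdGAP, and from 3 shCon samples, which carried a scrambled control shRNA. According to the methods, both shRNAs were delivered by lentivirus. Puromycin selection and then plating as single-cell clones are described for shCdGAP cells. Neither step is given for shCon cells, so effects of the selection, of the clone and of the shRNA cannot be told apart here. The comparison asks how the transcripts of this machinery differ when CdGAP, a GTPase-activating protein for Rac1 and Cdc42 encoded by ARHGAP31, is reduced.

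MHC class I molecules carry peptides cut from the cell's own proteins to the surface, where cytotoxic T cells and natural killer (NK) cells read them. Proteasomes cut the proteins, the TAP transporter moves the peptides into the endoplasmic reticulum, aminopeptidases trim them, and chaperones load them onto a heavy chain paired with beta-2 microglobulin. MHC class II molecules present peptides from endosomes and are normally made by professional antigen-presenting cells. Interferons raise both sets of genes, class I through NLRC5 and IRF factors and class II through CIITA.

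The libraries held 33182796 to 43154039 counted reads. The members together took 0.407% to 0.426% of all shCdGAP reads and 0.356% to 0.359% of all shCon reads, so the groups did not overlap. ARHGAP31 itself stood at 26.8 ± 0.351 CPM (counts-per-million units, scaled by TMM-adjusted library sizes; SD, n = 3) in shCdGAP and 59.2 ± 1.22 CPM (SD, n = 3) in shCon. Its log2 fold change was -1.14 (adjusted p = 8.75e-08). This and every adjusted p below come from the quasi-likelihood test of edgeR with Benjamini-Hochberg adjustment, unless another tool is named, and SE is the standard error of the log2 fold change. The shCdGAP replicate 2 library differed most from its group, and it was the highest shCdGAP library for several members below. The keratins and other epithelial markers EPCAM, KRT8, KRT18, KRT19 and CLDN4 were abundant, at a summed 1094 to 1409 CPM in shCdGAP and 879 to 900.4 CPM in shCon. KLK3, KLK2 and TMPRSS2, which mark androgen-driven luminal cells, had at most 3 reads in every library.

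Promoters of class I pathway genes commonly carry an interferon-stimulated response element (ISRE), which IRF and STAT factors bind. RefSeq promoter windows (GRCh38.p14, from 250 bases before to 50 bases after each start) were found for 27 members and were searched on both strands for GAAA, any 2 bases, then GAAA again. This ISRE-like motif was present for 11 of the 27 members (40.7%), against 4.38% of the 27305 genes with a window. Counted by window it was present in 11 of 38 member windows, or 28.9%, against 3.57% of all windows. The stretches around the match are shown because these are the letters that members of different roles share. Capitals mark the match, and where matches overlap the capitals cover both. Sequences read 5′ to 3′ on the strand of the gene, and TTTC, any 2 bases, TTTC is the same motif on the other strand.
HLA-F (chr6:29723268-29723297, plus strand): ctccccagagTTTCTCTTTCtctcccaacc
B2M (chr15:44711366-44711395, plus strand): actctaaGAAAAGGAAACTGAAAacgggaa
TAP1 (chr6:32853816-32853845, minus strand): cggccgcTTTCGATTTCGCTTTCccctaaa
TAP2 (chr6:32838778-32838807, minus strand): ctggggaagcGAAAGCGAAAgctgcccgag
TAPBP (chr6:33314076-33314105, minus strand): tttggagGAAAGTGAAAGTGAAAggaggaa
PSMB8 (chr6:32844032-32844061, minus strand): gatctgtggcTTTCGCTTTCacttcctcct
PSMB10 (chr16:67936852-67936881, minus strand): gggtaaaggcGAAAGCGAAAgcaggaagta
PSME1 (chr14:24136189-24136218, plus strand): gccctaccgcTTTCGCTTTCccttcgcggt
PSME2 (chr14:24146619-24146648, minus strand): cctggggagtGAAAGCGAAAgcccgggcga
ERAP1 (chr5:96807924-96807953, minus strand): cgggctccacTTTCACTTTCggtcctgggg
ERAP2 (chr5:96876460-96876489, plus strand): tcttagaacaGAAAGTGAAAgcaaaagtaa

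The letters GAAAGCGAAA, on one strand or the other, recurred at TAP1, TAP2, PSMB8, PSMB10, PSME1 and PSME2. B2M, TAP1 and TAPBP each held a pair of overlapping matches.

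TAP1 and PSMB9 start head to head with 487 bases between their first bases. The TAP1 match lies 118 bases from the TAP1 start and 353 bases from the PSMB9 start, so it falls outside the PSMB9 window although it lies between both genes. The GAS-like motif TTCNNNGAA, a STAT site, was in windows of TAP1 and PSMB8 only among members, or 7.41% of the 27, against 9.38% of all genes. The box CCAAT, read by NF-Y, was in windows of 18 of 27 members (66.7%) and of 39.7% of all genes. HLA-E, PDIA3, NLRC5, CIITA, HLA-DRA and CTSS had no window in the table used.

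Across the machinery, transcripts were mostly higher in shCdGAP cells, unevenly so from step to step. Of the 33 members, 26 had enough reads to test. At an adjusted p under 0.01, 17 of the 26 (65.4%) were higher and 0 were lower, and 9 did not pass. Over all 16439 genes tested, 24.1% were higher and 22.0% were lower at that threshold. With a log2 fold change above 1 as well, 9 members (34.6%) were called higher, against 8.56% of all genes, and 0 were called lower, against 4.19%. NLRC5, CD74, TAPBPL, PSMB9, HLA-DMA, TAP1, HLA-F, CTSS and MICB were the 9. The median log2 fold change of the 26 was 0.56, while that of all genes was 0.01. CD74 passed the filter on low reads only through its shCdGAP libraries. Without it, 16 of 25 members were higher and the median was 0.52. With at least 10 reads required in every library, a filter that CD74 fails, 8 of 25 members were past both thresholds.

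Every shCdGAP library lay above every shCon library for 21 of the 26 members, a pattern seen in 34.4% of all genes. TAPBP and ERAP2 had every shCdGAP library below every shCon library, and HLA-G, CALR and PDIA3 overlapped. TAPBP and ERAP2 were also the only members lower at an unadjusted p under 0.05, and 20 members were higher at that level. The shares of all genes at that level, and with every shCdGAP library below, were not computed. These counts are therefore only described. DESeq2 and limma-voom each found 17 higher and 0 lower at an adjusted p under 0.01. Without shCdGAP replicate 2 the counts were 20 higher and 2 lower, the lower pair being TAPBP and ERAP2. In these bulk samples, a larger share of cells with a transcript and more of it per cell cannot be told apart.

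**Figure D1:**
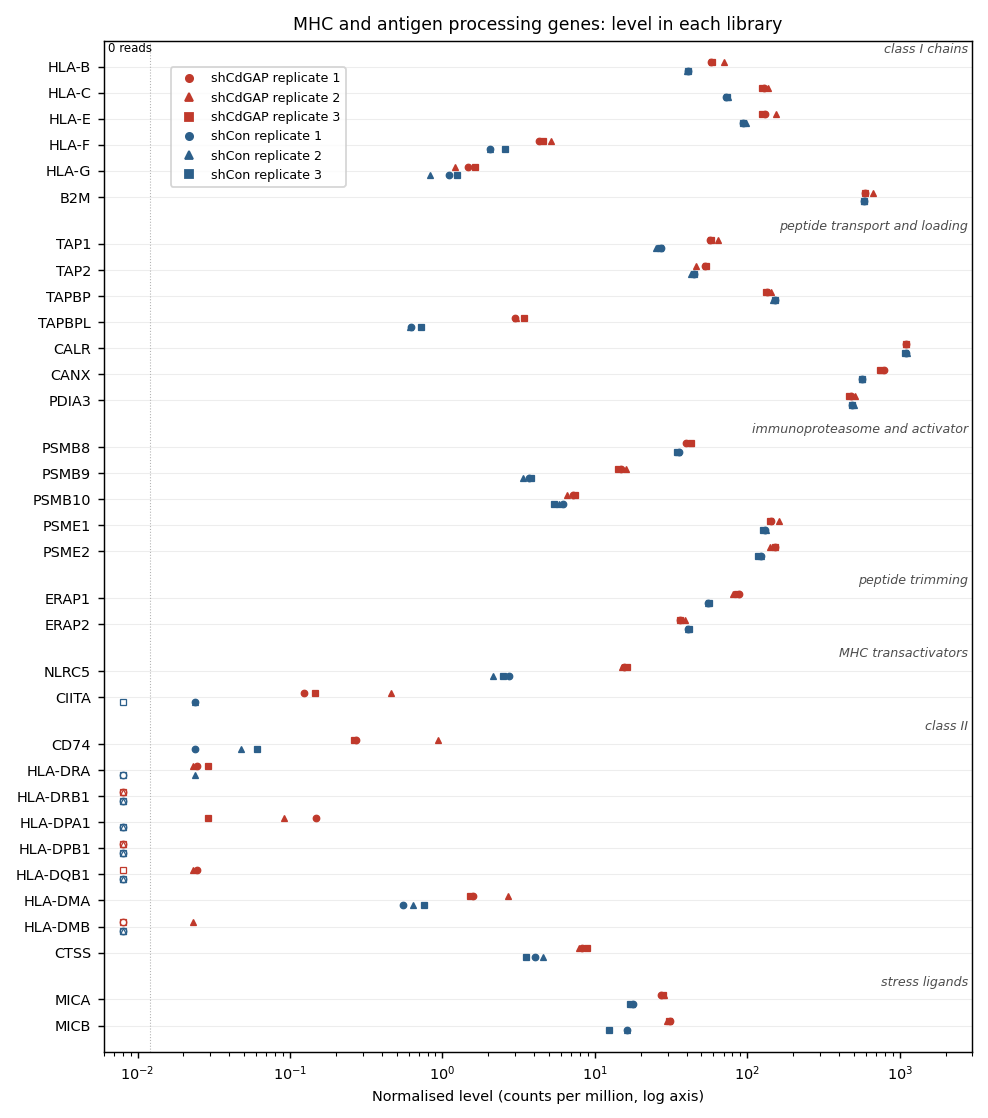
Level of each of the 33 members in each library, in CPM on a log axis. Colours mark the groups, shapes mark the replicates, and open symbols at the left edge mark libraries with 0 reads. NLRC5, TAPBPL and PSMB9 show wide gaps between the groups, CALR and PDIA3 show none, and HLA-DRB1 and HLA-DPB1 have 0 reads in all 6 libraries.

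**Figure D2:**
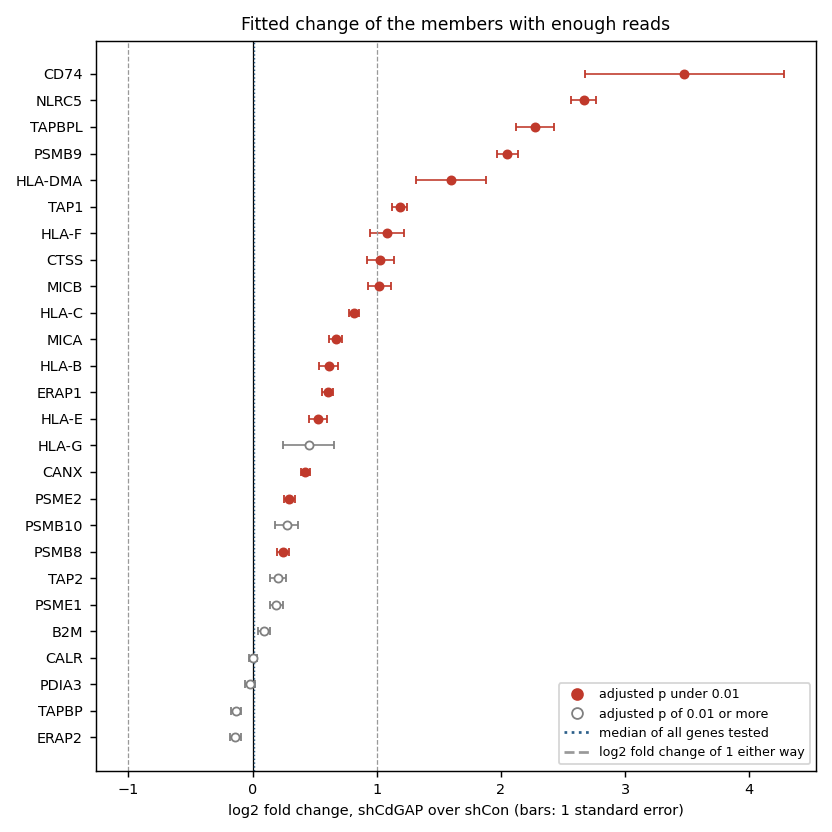
Fitted log2 fold change of shCdGAP over shCon for the 26 members tested, with bars of 1 SE, derived from the F statistic. Filled points passed an adjusted p of 0.01, dashed lines mark a log2 fold change of 1 either way and the dotted line marks the median of all genes tested. The values run from -0.14 for ERAP2 to 3.48 for CD74, and 9 filled points lie beyond 1. One of these is CD74, which passed the filter on low reads only through its shCdGAP libraries.

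The class I chains were measured by 5 heavy chain genes and B2M, the invariant light chain. Of these 6 genes, 4 rose and 2 did not pass the test, with a median of 0.57 on the log2 scale. HLA-B and HLA-C encode classical chains that present peptides to T cells. HLA-B stood at 62.2 ± 6.997 CPM in shCdGAP and 40.8 ± 0.378 CPM in shCon (SD, n = 3), a log2 fold change of 0.61 (SE 0.0737, adjusted p = 1.21e-04). HLA-C rose more, from 73.6 ± 0.863 to 129.5 ± 5.73 CPM (SD, n = 3), by 0.82 on the log2 scale (SE 0.0417, adjusted p = 5.79e-07). The deposited HLA-C model runs into HLA-B on the same strand and shares 343 exonic bases with it, which are 12.04% of HLA-C and 11.4% of HLA-B. Reads in that stretch, and reads that align equally well to several HLA genes, are counted for neither gene under the options in the file headers.

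HLA-E presents leader peptides of other class I chains to NK cell receptors. It rose by 0.52 on the log2 scale (adjusted p = 3.05e-04), from 95.02 ± 2.43 to 136.7 ± 15.1 CPM (SD, n = 3). Per length, HLA-C and HLA-E changed their standing. In shCon, HLA-E held 30.5 to 32.0 RPKM (CPM divided by exonic length in kilobases) and HLA-C 25.5 to 26.1, with no overlap. In shCdGAP they held 41.1 to 50.4 and 43.7 to 47.6 RPKM and overlapped.

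HLA-F, a non-classical chain (ENSG00000204642, chromosome 6 from 29722775 to 29738528), was the class I chain gene past a log2 fold change of 1. It had 4.32, 5.12 and 4.57 CPM in shCdGAP replicates 1, 2 and 3, and 2.05, 2.04 and 2.57 CPM in the shCon replicates. All 3 shCdGAP libraries were above the highest shCon library, and the log2 fold change was 1.08 (SE 0.136, adjusted p = 1.45e-04). The gene HLA-F-AS1 lies on the opposite strand over 12.3% of its exonic bases. HLA-G, the non-classical chain best known from the placenta, had 53 to 60 reads in shCdGAP and 35 to 46 in shCon. Its log2 fold change of 0.45 (SE 0.204) did not pass (adjusted p = 0.0847), and its scaled levels overlapped.

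B2M was the most abundant class I transcript per length, at 160 to 181 RPKM in shCdGAP and 155 to 157 RPKM in shCon. Its 3 shCdGAP libraries stood at 596, 673 and 596 CPM and its shCon libraries at 585, 586 and 580 CPM. The log2 fold change of 0.09 (SE 0.0503) did not pass (adjusted p = 0.150). The heavy chains summed per length, set against B2M in the same library, gave 0.682, 0.683 and 0.664 in shCdGAP and 0.453, 0.461 and 0.458 in shCon. This ratio was thus 1.48 times as high in shCdGAP with no overlap, and the exact permutation test gave p = 0.1, the smallest value that 3 against 3 allows.

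**Figure D3:**
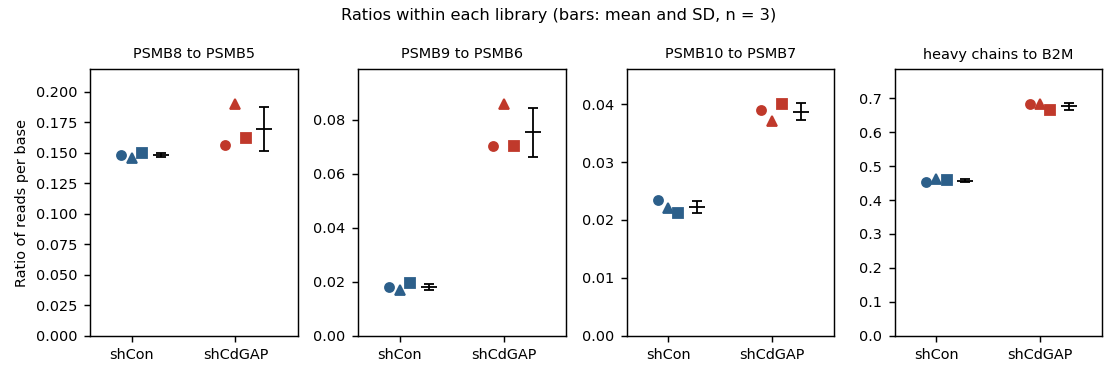
Ratios of reads per base within each library, on linear axes from 0, for each immunoproteasome subunit to the standard subunit it replaces and for the summed class I heavy chains to B2M. Points are libraries and bars show the mean and SD of 3. The PSMB9 to PSMB6 ratio lies between 0.0701 and 0.0857 in shCdGAP and between 0.0171 and 0.0194 in shCon, and no panel shows overlap between groups.

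Of the 7 genes of peptide transport and loading, 3 rose and 4 did not pass. Their log2 fold changes ran from -0.14 to 2.28 with a median of 0.21. TAP1 and TAP2 encode the subunits of the transporter, which works as a heterodimer. TAP1 (ENSG00000168394, chromosome 6 from 32845209 to 32853978) had 57.3, 64.4 and 57.7 CPM in shCdGAP and 27.1, 25.2 and 26.6 CPM in shCon. All shCdGAP libraries were far above the shCon libraries, with a log2 fold change of 1.19 (SE 0.0587, adjusted p = 4.85e-07). Its partner TAP2 changed by 0.21 (SE 0.0617, adjusted p = 0.0180) and did not pass. With the replicate number as a block TAP2 gave 0.20 and passed (adjusted p = 0.00962), as it did without shCdGAP replicate 2.

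Per length, the order of the transporter subunits differed between groups. TAP2 lay above TAP1 in shCon, at 6.66 to 7.05 against 5.497 to 5.92 RPKM. TAP1 lay above TAP2 in shCdGAP, at 12.5 to 14.1 against 7.23 to 8.41 RPKM. The TAP2 model shares 32.3% of its exonic bases with an unnamed gene of the same strand, where reads are not counted. RPKM still divides by the full length, which sets TAP2 too low against TAP1. The order on countable bases alone was not computed.

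The peptide editors are encoded by a pair of related genes. TAPBP, or tapasin, bridges TAP to the class I chain and edits its peptides, while TAPBPL encodes TAPBPR, which works without TAP. TAPBPL (ENSG00000139192, chromosome 12 from 6451690 to 6466517) had 3.01, 3.05 and 3.43 CPM in shCdGAP and 0.620, 0.616 and 0.726 CPM in shCon. It was 4.84 times as high, with no overlap (log2 fold change 2.28, SE 0.155, adjusted p = 3.39e-06). TAPBP stood at 133 to 143 CPM in shCdGAP and 147 to 152 CPM in shCon, and its log2 fold change of -0.14 (SE 0.0392) did not pass (adjusted p = 0.0155). It passed as lower without shCdGAP replicate 2, at -0.18 (adjusted p = 4.49e-07), and with chromosomes 9 and 13 left out, at -0.15 (adjusted p = 0.00853). TAPBPL remained by far the scarcer per length, at 0.993 RPKM against 27.1 RPKM of TAPBP in shCdGAP.

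Calnexin, calreticulin and ERp57 are general glycoprotein chaperones that also serve class I folding. CANX, which encodes calnexin, rose by 0.43 on the log2 scale (adjusted p = 1.09e-05), from 566 ± 2.52 to 760 ± 23.8 CPM (SD, n = 3). The 14 other tested genes within 1 Mb of CANX had a median of 0.24, and 8 of them were higher. Whether CANX moved with its neighbourhood was not tested. CALR, the calreticulin gene, was level at 1100 ± 6.56 and 1096 ± 21.0 CPM (SD, n = 3), with a log2 fold change of 0.00 (SE 0.0323, adjusted p = 0.915). PDIA3, the ERp57 gene, gave -0.02 (SE 0.0391, adjusted p = 0.635).

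In the immunoproteasome, interferon-inducible subunits replace the catalytic subunits of the standard core. PSMB8 takes the place of PSMB5, PSMB9 of PSMB6 and PSMB10 of PSMB7, while PSME1 and PSME2 form an activator cap. Of these 5 members, 3 rose, and 2 did not pass. PSMB9 (ENSG00000240065, chromosome 6 from 32844136 to 32859585) stood out, with 14.8, 16 and 14.1 CPM in shCdGAP and 3.67, 3.39 and 3.78 CPM in shCon. The lowest shCdGAP library was far above the highest shCon library, and the log2 fold change was 2.05 (SE 0.0880, adjusted p = 2.22e-07).

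PSMB8 lies next to TAP1 in the same cluster and changed far less. It rose from 35.2 ± 0.655 to 41.7 ± 1.68 CPM (SD, n = 3), by 0.24 on the log2 scale (SE 0.0466, adjusted p = 0.00179). This call was lost without any single shCon library, with an adjusted p of 0.0107, 0.0145 and 0.0154 without shCon replicates 1, 2 and 3. PSMB8 stayed the more abundant per length, at 20.8 RPKM against 4.87 RPKM of PSMB9 in shCdGAP and at 17.6 against 1.18 RPKM in shCon. PSMB10 gave 0.28 (SE 0.0936, adjusted p = 0.0308) and shares 34.8% of its exonic bases with an unnamed gene of the same strand.

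The standard partners PSMB5 and PSMB6 gave log2 fold changes of 0.06 (adjusted p = 0.412) and 0.00 (adjusted p = 0.985). PSMB7, on chromosome 9, fell by 0.52 on the log2 scale (adjusted p = 3.13e-06). The ratio of PSMB9 to PSMB6 per length was 0.0753 ± 0.00901 in shCdGAP and 0.0181 ± 0.00117 in shCon (SD, n = 3), 4.15 times as high. The ratio of PSMB10 to PSMB7 was 1.74 times as high, at 0.0387 ± 0.00146 against 0.0223 ± 0.00110, and there the denominator fell. The ratio of PSMB8 to PSMB5 was 1.14 times as high, at 0.169 ± 0.0180 against 0.148 ± 0.00187. For each of these ratios the groups did not overlap, and the exact permutation p was 0.1. Each immunoproteasome transcript stayed well below its standard partner in all 6 libraries.

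The activator genes moved little. PSME2 rose by 0.30 on the log2 scale (adjusted p = 2.95e-04), from 121 ± 2.94 to 149 ± 6.43 CPM (SD, n = 3). PSME1 gave 0.19 (SE 0.0519) and did not pass (adjusted p = 0.0116), but it did with the replicate block, at 0.19 (adjusted p = 0.00755). The 44 other tested genes around this pair on chromosome 14 had a median of 0.25, and 25% of them were higher. Whether the pair moved with its neighbourhood was not tested.

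ERAP1 and ERAP2 are adjacent on chromosome 5 and encode the aminopeptidases that trim peptides in the endoplasmic reticulum. ERAP1 rose by 0.60 on the log2 scale (SE 0.0424, adjusted p = 4.04e-06), from 55.7 ± 0.686 to 84.7 ± 3.58 CPM (SD, n = 3). ERAP2 went the other way without passing, with 36.3 to 38.9 CPM in shCdGAP and 40.6 to 41.5 CPM in shCon. Its log2 fold change was -0.14 (SE 0.0455, adjusted p = 0.0273), and without shCdGAP replicate 2 it was -0.18 and passed (adjusted p = 1.78e-04). ERAP1 was already above ERAP2 per length in shCon, at 7.01 against 5.52 RPKM, and was further above it in shCdGAP, at 10.7 against 5.01 RPKM.

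NLRC5 is the transactivator that joins the factors on class I promoters (ENSG00000140853, chromosome 16 from 56989485 to 57083531). It had 627, 661 and 557 reads in shCdGAP and 114, 90 and 83 in shCon, or 15.5, 15.2 and 16.2 CPM against 2.72, 2.13 and 2.51 CPM. The groups lay far apart, and the log2 fold change of 2.67 (SE 0.101, adjusted p = 1.15e-07) was a 6.36-fold rise. Leaving out each library in turn kept it between 2.56 and 2.74. The 26 other tested genes within 1 Mb of NLRC5 had a median of -0.03. Against a log2 fold change of 1, edgeR's glmTreat called NLRC5 (adjusted p = 1.85e-06), PSMB9 (adjusted p = 9.23e-06) and TAPBPL (adjusted p = 1.19e-04) and no other member.

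CIITA, the class II transactivator (ENSG00000179583, chromosome 16 from 10877198 to 10932281), was barely detected and was not tested. It had 5, 20 and 5 reads in shCdGAP and 1, 1 and 0 in shCon. Most of its reads came from shCdGAP replicate 2, yet every shCdGAP library was above every shCon library. The ratio of the summed reads, scaled for library size, was 14.8 (95% interval 3.77 to 128, exact and for counting error only). Without shCdGAP replicate 2, a setting chosen after the reads were seen, it was 7.82 (1.67 to 73.4).

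CD74, the invariant chain that escorts class II molecules (ENSG00000019582, chromosome 5 from 150401637 to 150412929), showed the same pattern. It had 11, 41 and 9 reads in shCdGAP and 1, 2 and 2 in shCon. The ratio of summed reads was 12.1 (95% interval 4.90 to 38.5), and without shCdGAP replicate 2 it was 6.26 (2.28 to 21.3). In the fit the log2 fold change was 3.48 (SE 0.801, adjusted p = 0.00540), and without shCdGAP replicate 2 it was 2.55. The call was lost without any single shCon library, with an adjusted p of 0.0269, 0.0242 and 0.0184 without replicates 1, 2 and 3.

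The chains of class II themselves were at or near 0 reads. HLA-DRB1 and HLA-DPB1 had 0 reads in all 6 libraries, which allows up to 3 reads over each group. HLA-DRA had 1 read in each shCdGAP library and 0, 1 and 0 in shCon. HLA-DPA1 had 6, 4 and 1 reads in shCdGAP and 0 in every shCon library. Against that floor of 3 reads over the shCon group it was at least 3.63-fold higher, a bound that leaves out the counting error of its 11 shCdGAP reads. HLA-DQB1 had 1, 1 and 0 reads in shCdGAP and 0 in shCon, and HLA-DMB had 1 read in all, in shCdGAP replicate 2. At these depths a difference in HLA-DRA, HLA-DQB1 and HLA-DMB was not detectable.

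HLA-DMA, a subunit of the class II peptide editor (ENSG00000204257, chromosome 6 from 32948613 to 32969094), was better measured. It had 64, 118 and 52 reads in shCdGAP and 23, 27 and 25 in shCon, or 1.58, 2.71 and 1.51 CPM against 0.548, 0.640 and 0.757 CPM. The groups did not overlap and shCdGAP replicate 2 was again the highest. The log2 fold change was 1.597 (SE 0.279, adjusted p = 0.00106), and without that library it was 1.26 and still passed. Its partner subunit HLA-DMB was the gene with 1 read. CTSS, the cathepsin that cuts the invariant chain (ENSG00000163131, chromosome 1 from 150730196 to 150765957), had 8.19, 7.88 and 8.82 CPM in shCdGAP and 4.03, 4.55 and 3.54 CPM in shCon. It separated fully, with a log2 fold change of 1.03 (SE 0.111, adjusted p = 5.46e-05), which was 0.94 without shCon replicate 3.

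Markers of leukocytes and antigen-presenting cells, and of endothelial cells and fibroblasts, were set beside the members. Of 12 leukocyte and antigen-presenting cell markers, 6 had at most 3 reads in every library, among them MS4A1 and CD3E with 0 reads in all and PTPRC, CD8A and CSF1R. The 12 markers summed to 2.79 to 3.90 CPM in shCdGAP and 3.84 to 4.48 CPM in shCon. CD86 made up most of that sum, at 2.34 to 3.03 CPM in shCdGAP and 2.91 to 3.22 CPM in shCon. LYZ was lower in shCdGAP, with 4, 3 and 1 reads against 15, 27 and 26. The dendritic and myeloid markers ITGAX and ITGAM had few reads. ITGAX had 0, 5 and 1 in shCdGAP against 0, 1 and 0 in shCon. ITGAM had 2, 4 and 1 against 1, 1 and 0. Their ratios of summed reads were 5.94 (95% interval 0.720 to 273) and 3.46 (0.659 to 34.2). Both intervals include equal levels, so a difference was not resolved for either gene. For ITGAX and ITGAM, shCdGAP replicate 2 was the highest library, as for CIITA, CD74 and HLA-DMA. CD14 had 27 reads in shCdGAP and 23 in shCon, and CD79A had 16 and 20. The scaled levels of CD14 and CD79A overlapped between groups. The list of 7 endothelial and fibroblast markers summed to 7.92 to 16.1 CPM in shCdGAP and 10.1 to 11.8 CPM in shCon, with VWF at no more than 1 read. PECAM1 (log2 fold change -0.57, adjusted p = 0.181) and KDR (-0.13, adjusted p = 0.742) made up most of that sum and did not pass. CDH5 was lower, with 2, 3 and 2 reads in shCdGAP against 9, 10 and 7 in shCon. DCN had 1, 5 and 1 reads against 1, 0 and 0. The fibroblast markers LUM (log2 fold change 3.01, adjusted p = 8.80e-06) and PDGFRB (log2 fold change 3.17, adjusted p = 9.02e-05) of that list were higher. LUM had 72, 91 and 52 reads against 11, 9 and 6, and PDGFRB had 30, 52 and 39 against 4, 7 and 2. Both had few shCon reads and, like CD74, passed the filter on low reads only through their shCdGAP libraries. The part of other cell types in the members' differences was not tested. In the neighbourhood of CD74 on chromosome 5, the 22 other tested genes had a median log2 fold change of 0.23. Around CIITA the 16 other genes had a median of -0.08.

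MICA and MICB are stress-induced ligands of the NK cell receptor NKG2D and present no peptide. MICA rose by 0.67 on the log2 scale (SE 0.0504, adjusted p = 6.17e-06), from 17.5 ± 0.520 to 27.8 ± 0.528 CPM (SD, n = 3). MICB (ENSG00000204516, chromosome 6 from 31494881 to 31511124) had 30.9, 29.8 and 30.5 CPM in shCdGAP and 16.1, 16.2 and 12.4 CPM in shCon. The shCdGAP libraries lay close together above all shCon libraries, of which replicate 3 was the lowest. Its log2 fold change was 1.02 (SE 0.0953, adjusted p = 2.54e-05), and 0.89 without shCon replicate 3. Per length the pair stood close in shCdGAP, at 11.6 RPKM for MICA and 10.9 RPKM for MICB.

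Of the members, 19 lie on chromosome 6 in the MHC region, between 29722775 and 33314387 on GRCh38. The 110 other tested genes of that stretch had a median of 0.09 on the log2 scale. Of these neighbours 22.7% were higher and 13.6% lower, near or under the shares among all genes. Members that stood highest in the region were PSMB9, HLA-DMA, TAP1, HLA-F and MICB, while TAP2, PSMB8 and TAPBP lay near 0. The cluster of TAP2, PSMB8, TAP1 and PSMB9 thus held both kinds side by side.

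**Figure D4:**
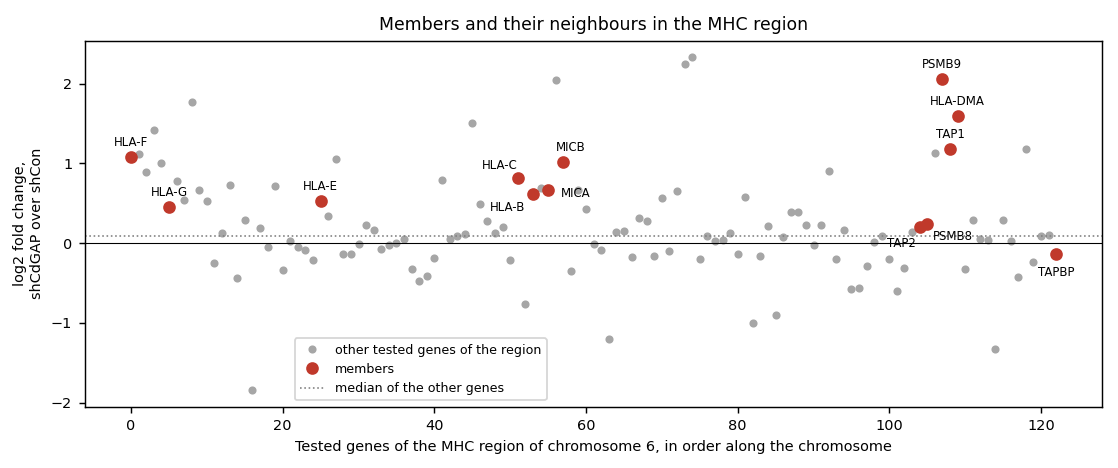
Log2 fold change of shCdGAP over shCon for the tested genes of the MHC region, in their order along chromosome 6, with members in red and the 110 other genes in grey. The dotted line marks the median of the other genes, 0.09. PSMB9 at 2.05, HLA-DMA at 1.597 and TAP1 at 1.19 stand above it, while TAP2 at 0.21 and PSMB8 at 0.24 lie close to it.

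The ISRE-like motif and the size of the change were set side by side, as a description. Of the 11 members with the motif, all tested, 5 were higher and the median log2 fold change was 0.24, from -0.14 to 1.19. Of the 11 tested members with a window and no match, 9 were higher and the median was 0.82. That group includes CD74, which passed the filter on low reads only through its shCdGAP libraries. It also includes PSMB9, since the match between TAP1 and PSMB9 lies outside its window. The comparison was not repeated without these genes, so no conclusion is drawn from it. TAP1 and HLA-F, printed above, were the members with a match that passed a log2 fold change of 1. The letters GAAAGCGAAA were shared by TAP1, with a log2 fold change of 1.19, and by TAP2, PSMB8, PSMB10, PSME1 and PSME2, with 0.19 to 0.30. Of these 5, PSMB8 and PSME2 passed the test. A match says only that these letters are in the window.

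The rest of the pathway was read from 8 companion lists of 76 genes, of which 70 were tested. Their median log2 fold change was 0.06, and 24 were higher and 19 lower. Among all 16439 genes tested, 24.1% were higher and 22.0% lower, the shares to hold beside each list count at an adjusted p under 0.01. For counts at an unadjusted p under 0.05, the shares of all genes were not computed. The standard proteasome core had 0 of 14 genes higher and 4 lower, the lower ones being PSMB7, PSMA6 (-0.34), PSMA4 (-0.19) and PSMA7 (-0.14). The other proteasome regulators, 4 genes, had 0 higher and 3 lower: POMP (-0.25), which assembles the core, the activator PSME3 (-0.22) and the inhibitor PSMF1 (-0.14). At an unadjusted p under 0.05, 2 core genes and 0 regulators were higher, and DESeq2 and limma-voom also found 0 higher in both lists at an adjusted p under 0.01.

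The factors that NLRC5 and CIITA join on MHC promoters did not share one direction. Of 7 genes, 2 were higher and 3 lower. RFX5, which binds the X box, gave 0.20 (adjusted p = 0.00267), and NFYC gave 0.25 (adjusted p = 0.00158). NFYA, another subunit of the CCAAT-binding NF-Y, fell by 0.75 on the log2 scale (adjusted p = 1.44e-06), and RFXAP, on chromosome 13, fell by 0.41 (adjusted p = 0.00157).

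The interferon input list held ligands, receptors and signalling genes. IFNB1 and IFNG had 0 reads in all 6 libraries, and IFNL1 had 1 read in each shCdGAP library and 0 in shCon. Of 14 genes tested, 5 were higher and 4 lower. STAT2, a signal transducer of type I interferon, gave a log2 fold change of 0.90 (adjusted p = 6.33e-07), and SOCS1, a feedback inhibitor, gave 1.31 (adjusted p = 1.07e-04). JAK2, on chromosome 9, fell by 1.11 (adjusted p = 7.68e-07). IRF1, which acts on many class I promoters, gave 0.18 and did not pass (adjusted p = 0.0140).

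Cytosolic and other peptidases, which destroy or trim peptides before transport, had 1 of 7 genes higher and 5 lower. TPP2, on chromosome 13, fell by 1.67 (adjusted p = 3.04e-08), BLMH fell by 0.33 (adjusted p = 7.74e-04) and NRDC gave 0.31 (adjusted p = 5.12e-05). Endosomal processing genes went with CTSS: 6 of 7 tested were higher and 0 lower. The cathepsin genes CTSH (1.86, adjusted p = 2.33e-06), CTSB (1.37, adjusted p = 4.73e-08) and CTSD (0.84, adjusted p = 1.88e-07) led them. No gene of that list was lower at an unadjusted p under 0.05 or by DESeq2 or limma-voom. CTSB went from 172 ± 1.91 to 444 ± 23.7 CPM (SD, n = 3).

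Among class I-like molecules, 3 of 4 tested were higher and 0 lower, and 0 were lower at an unadjusted p under 0.05 or by the other tools. AZGP1, which encodes a soluble relative of the heavy chain, had 18, 36 and 24 reads in shCdGAP and 8, 3 and 3 in shCon (log2 fold change 2.43, adjusted p = 9.56e-04). Like CD74, it passed the filter on low reads only through its shCdGAP libraries, and so did PDCD1LG2, named below. MR1, which presents vitamin metabolites to MAIT cells, gave 1.46 (adjusted p = 5.76e-05), and PROCR, the protein C receptor gene, gave 0.94 (adjusted p = 6.96e-07). The other ligands of NK cells and checkpoints had 7 of 13 genes higher and 0 lower. At an unadjusted p under 0.05, 1 was lower, NECTIN2 (-0.46), which DESeq2 also called lower. The NKG2D ligand genes RAET1L (2.51, adjusted p = 1.22e-04) and RAET1G (1.55, adjusted p = 7.24e-04) had the largest changes, followed by PDCD1LG2 (1.54, adjusted p = 0.00793), a ligand of PD-1. RAET1L had 1.73, 3.24 and 2.01 CPM in shCdGAP and 0.453, 0.450 and 0.303 CPM in shCon.

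**Figure D5:**
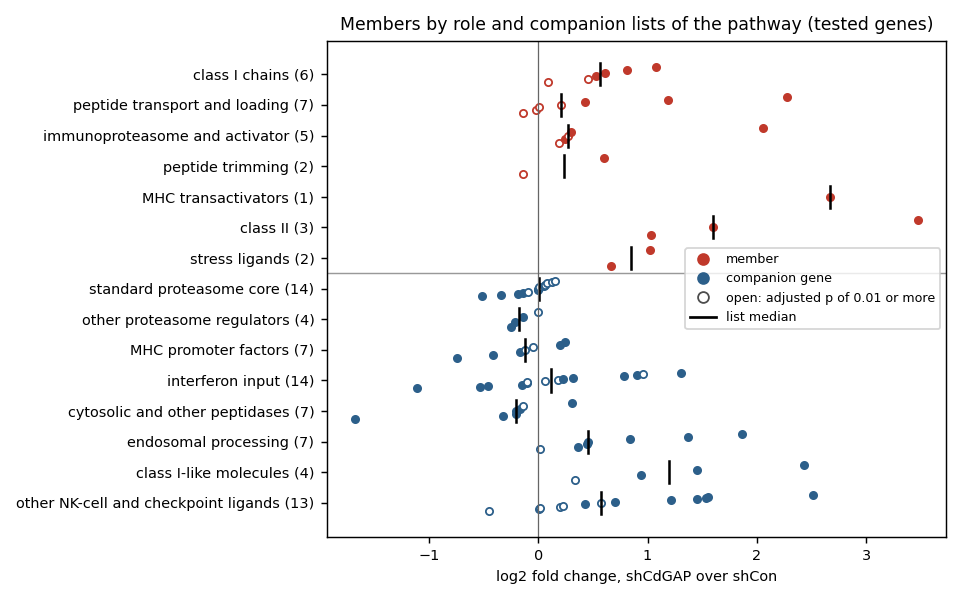
Log2 fold change of shCdGAP over shCon for the tested members by role, in red, and for the companion genes by list, in blue, with the number of tested genes in brackets. Filled points passed an adjusted p of 0.01 and black bars mark list medians. The standard proteasome core lies near 0 with a median of 0.00, against 0.28 for the immunoproteasome and its activator, and the NK-cell and checkpoint ligands have a median of 0.57.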

How the data were processed

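Total RNA of 3 shCdGAP and 3 shCon PC-3 samples was sequenced, and groups and replicate numbers were taken from the sample titles. The authors deposited the raw count of each gene in each sample, from reads aligned to GRCh38 with STAR 2.5.1b and counted on Ensembl release 77. The file headers give featureCounts 1.6.0 with stranded pair counting, whereas the submitters' processing notes give 1.4.6. Under the options in the headers, a read with several alignments or within overlapping same-strand genes is dropped, which can lower counts of similar HLA genes. All 3974 genes on alternate contigs had 0 reads in every library, so summing copies over contigs changed nothing and was not run as an alternative. Symbols were matched for 56105 of 64253 gene identifiers.

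Counts were analysed with edgeR 4.0.16 (robust quasi-likelihood F test after TMM and filterByExpr, Benjamini-Hochberg over 16439 genes) in R 4.3.3. Positions of genes were read from the count tables (GRCh38). CPM used TMM-adjusted library sizes, and RPKM divided these by exonic length. That length includes bases shared with same-strand genes, where reads are not counted, so per-length levels of such genes are set too low. An adjusted p under 0.01 was needed, and an absolute log2 fold change above 1 for a called gene. Alternatives were DESeq2 1.42.0, limma-voom (limma 3.58.1), upper-quartile scaling, library totals only, other filters, other thresholds, chromosomes 9 and 13 left out, a replicate block and each library left out. Deviations from the group mean were correlated across groups over 10282 genes. Same-numbered libraries gave a Pearson correlation of 0.121, 0.126 and 0.117 for replicates 1, 2 and 3. Libraries with different numbers gave -0.204 to 0.104, so the highest of these came close. No label states a pairing, so the main fit was unpaired and the replicate block was only an alternative. Ratios were tested by exact permutation, two-sided. The scripts were tested on simulated counts. The methods name 3 independent samples per group, and intervals of read ratios cover counting error only.

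Members and companion lists were chosen with earlier results of these data known. Members past both thresholds or with at most 3 reads in a group are given per library. From the companion lists PSMB5, PSMB6, PSMB7, IRF1 and RFX5 are named, as are up to 3 genes per list with the largest change at an adjusted p under 0.01, and others, chosen after their values were seen, only where a small count is spelled out. Some genes of the companion and marker lists are not reported here.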

Additional observations from a re-analysis of the deposited data

How the results depend on the processing

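Over 14 settings, 363 fits of single members were compared with the values reported: 337 kept their direction and their side of the threshold, 12 passed newly, 6 no longer passed and 8 turned their sign. The turned ones were CALR and PDIA3, both near 0. CALR was -0.0148 with chromosomes 9 and 13 left out and -0.0088 with DESeq2. Without shCdGAP replicates 1, 2 and 3 it was -0.0108, -0.0033 and -0.0014, and without shCon replicates 1 and 3 it was -0.0135 and -0.022, a range of -0.022 to 0.0047 over the 6 libraries left out. PDIA3 was 0.0025 with library totals only. The cause was not tested.

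The count of members past both thresholds was 9 and fell to 3 with glmTreat, which tests against the fold limit itself. Leaving out single libraries gave 6 to 9, with 6 without shCon replicate 3, where MICB, CTSS and CD74 dropped out. The count of lower members was 0 and rose to 1 with chromosomes 9 and 13 left out and to 2 at an adjusted p under 0.05. It was 0 to 2 with single libraries left out, 2 coming without shCdGAP replicate 2. In that fit 5013 and 5022 of 16727 genes were higher and lower, so calls were more frequent in general. Higher members numbered 15 to 20 over single libraries left out, and the median log2 fold change of the members 0.53 to 0.59 over the settings run. With no filter on low counts 31 members were tested, of which 21 were higher and 0 lower. With the replicate block 19 members were higher, 0 were lower and 9 were past both thresholds; besides TAP2 and PSME1 it changed no other member's call. Depth limits CIITA and the class II chains, which had at most 20 reads in any library.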
